A study of Gossypium hirsutum with 6 samples.

Results

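The genes described here had a measurable RNA level in cotton roots exposed to PS-COOH and were near silent in control roots. They are the annotated identifiers listed at 2 FPKM or above in each of 3 PS-COOH libraries and under 1 FPKM in each of 3 control libraries. The last 275 identifiers of chromosome code D05 in number order were left out, as were identifiers that the authors call newGene. Of the 81166 identifiers in the table, 75101 were annotated and outside that part of D05, and 88 of these met the limits. They are 0.278% of the 31711 annotated identifiers outside that part of D05 that were under 1 FPKM in each control library. FPKM is a read level corrected for the length of the transcript and for the total of mapped fragments in a library. The genes were selected on the FPKM values of all 6 libraries, so their higher level in PS-COOH roots is a description that no test can support.

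The RNA came from roots of upland cotton (Gossypium hirsutum) kept for 9 days with 300 mg/l PS-COOH or with 0 mg/l as control. The name PS-COOH commonly stands for polystyrene that carries carboxyl groups. There were 3 libraries a group of 150-bp paired-end reads. The labels do not say whether they came from separate plants or cultures, nor do they give the cotton line, the particle size or the age of the plants. The PS-COOH libraries held 64403 to 65242 identifiers above 0 FPKM and the control libraries 63090 to 63417. Summed FPKM averaged 603559 in PS-COOH and 562920 in control libraries. Values of log2(FPKM + 1) correlated at 0.984 to 0.988 across genes within a group and at 0.947 to 0.958 between groups. The table holds no read counts. Absolute depth is therefore unknown. Relative depth, read from the lowest values, was 1.04 to 1.10 times that of control replicate 1 in the PS-COOH libraries. In the other control libraries it was 1 and 0.973 times. In the first PS-COOH library 62 further near-silent genes stayed under 2 FPKM that reached it in the other PS-COOH libraries, against 9 for the second library and 16 for the third. Without the first PS-COOH library the limits were met by 150 genes, the 88 included.

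Polystyrene particles that carry carboxyl groups are used as a model of plastic debris in studies of plants, and roots are the organ that meets them first. Upland cotton is an allotetraploid whose A and D subgenomes come from different ancestors, so most genes have a counterpart in the other subgenome. In any plant organ a large part of the annotated genes gives little or no RNA, among them genes used in other organs, at other stages or under stress. A gene that appears in a bulk sample can be weakly transcribed in many cells or strongly in a few. These possibilities, and a change in the number of cells of a type, cannot be told apart here. The identifiers could not be paired with gene names in the reference table used here, so no function is given, the root identity of the samples could not be checked against marker genes, and no sequence is shown.

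The 88 genes, labelled switched-on in the figures, were at low levels in the PS-COOH roots. Their median level was 2.81, 2.93 and 2.90 FPKM in the 3 PS-COOH libraries, and 0.630, 0.693 and 0.582 FPKM in the control libraries. Summed over the 88 genes, the level was 300.2 ± 6.55 FPKM in PS-COOH and 51.4 ± 2.30 FPKM in control libraries (SD, n = 3 each), a ratio of 5.84. All 88 genes together made up 0.0497% of the summed FPKM of a PS-COOH library and 0.00914% of that of a control library on average. The median mean level in PS-COOH roots, 2.89 FPKM, was above 60.7% of all annotated identifiers, and the highest, 13.2 FPKM, was above 88.2% of them. Of the 88 genes, 51 averaged under 3 FPKM in PS-COOH roots, 14 averaged at least 4 FPKM, 10 at least 5 FPKM and 1 at least 10 FPKM.

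**Figure D1:**
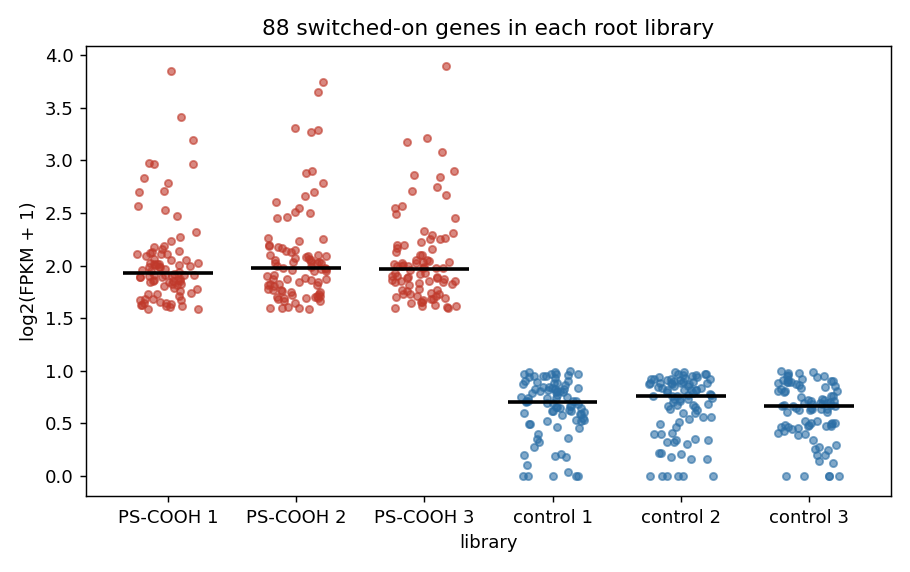
Level of each of the 88 genes (points, log2(FPKM + 1)) in each of the 3 PS-COOH and 3 control libraries, with the library's median as a bar. The limits of 2 FPKM in PS-COOH and 1 FPKM in control libraries separate the groups by construction, and the medians within a group lie close together, at 2.81 to 2.93 FPKM in PS-COOH and 0.582 to 0.693 FPKM in control libraries.

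Most of these genes were not fully silent in control roots. In 80 of the 88 every control library was above 0 FPKM, in 5 the gene was listed at 0 in 1 or 2 control libraries, and in 3 it was listed at 0 in all of them. The highest control library was at 0.5 FPKM or above in 73 genes (83.0%) and at 0.75 FPKM or above in 55 (62.5%). All 3 control libraries were under 0.25 FPKM in 6 genes. For the 85 genes with a control mean above 0, the ratio of the PS-COOH mean to the control mean ran from 2.77 to 58.1, with a median of 4.54. It was at least 5 in 36 genes, at least 10 in 14 and at least 20 in 5.

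A log-scale comparison places these values beside those of all other genes. All 88 genes passed the filter of the test, 1 FPKM in at least 3 libraries, and each passed only through its PS-COOH libraries. Their PS-COOH minus control differences, taken as log2(FPKM + 1) so that low genes appear to change less than they do, ran from 0.82 to 3.47 with a median of 1.26, where the median of all tested genes was -0.02. These sizes are set in part by the pseudocount, since with 0.1 in place of 1 they ran from 1.37 to 6.25 with a median of 2.06. The order of the genes changes too: Gohir.D07G038133.v2.1 is at 3.47 and Gohir.A02G048901.v2.1 at 3.09 with a pseudocount of 1, and at 5.23 and 6.25 with 0.1. All 88 were among the 7117 genes that rose in a limma test across all genes (adjusted p under 0.05), and 15.7% of the 45258 genes tested did so. The lowest PS-COOH library lay above the highest control library in 21.1% of all tested genes and in all 88 genes by the choice of members. Nothing is read from either count, because the same values chose the genes.

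**Figure D2:**
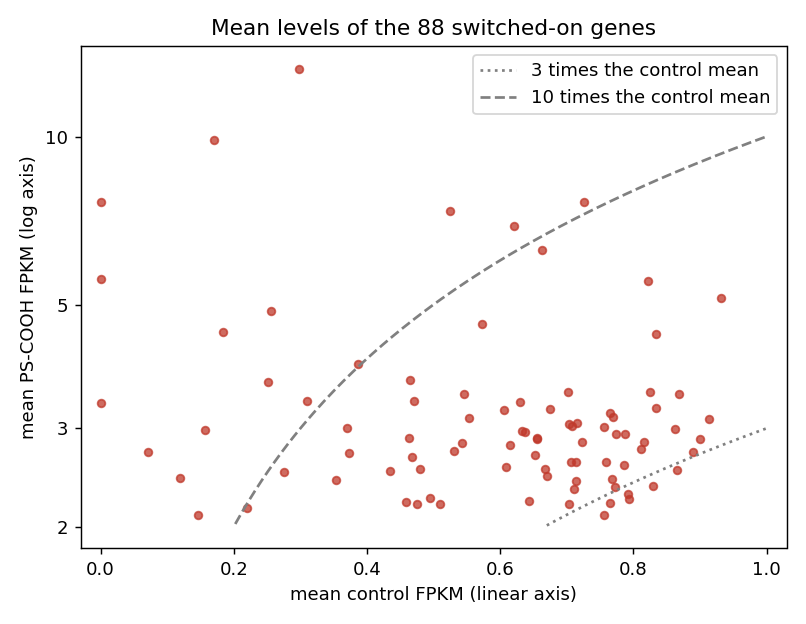
Mean PS-COOH FPKM (log axis) against mean control FPKM (linear axis) for the 88 genes, 3 libraries a group, with lines at 3 and 10 times the control mean. Most genes lie under 4 FPKM in PS-COOH roots with control means of 0.4 to 1 FPKM, and the 3 genes listed at 0 in all control libraries stand on the left edge.

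The gene with the highest level under exposure was Gohir.D07G038133.v2.1, on chromosome code D07. It was at 13.4, 12.4 and 13.9 FPKM in the PS-COOH libraries and at 0.584, 0.161 and 0.147 FPKM in the control libraries. The PS-COOH libraries were nearly level, and the first control library stood above the other two. The gene ranked second, on D09, was at 9.67, 11.6 and 8.29 FPKM in PS-COOH libraries and at 0, 0.509 and 0 FPKM in control libraries. Its ratio of means, 58.1, was the largest of the 85 that could be formed, and it rests on a single control library above 0. The third, on D11, was at 6.79, 8.67 and 7.46 FPKM in PS-COOH libraries and at 0.537, 0.989 and 0.654 FPKM in control libraries. That gene was close to the control limit, so it combined one of the highest exposed levels with a clear level in control roots.

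Gohir.A02G048901.v2.1, on A02, was the most abundant of the 3 genes listed at 0 in every control library. It was at 5.90, 8.93 and 8.02 FPKM in the PS-COOH libraries. A second such gene, on D13, was at 6.84, 5.90 and 3.95 FPKM in PS-COOH libraries, and its libraries were further apart. The last of them, on D12, was at 3.71, 3.52 and 2.74 FPKM in PS-COOH libraries. No ratio of means is given for these 3 genes, since a listed 0 without read counts sets no lower bound. The log-scale differences given above for Gohir.A02G048901.v2.1 are set by the pseudocount.

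Both genes on A06 among the 20 most abundant reached about the same level. The one ranked 5 was at 6.81, 8.76 and 6.48 FPKM in PS-COOH libraries and at 0.504, 0.429 and 0.642 FPKM in control libraries. The one ranked 6 was at 8.12, 6.45 and 6.19 FPKM in PS-COOH libraries and at 0.770, 0.828 and 0.262 FPKM in control libraries. Their ratios of means were 14.0 and 11.2, and each stood highest in a different PS-COOH library.

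Chromosome code D12 held 3 of the 20 most abundant genes, all even between libraries. The gene ranked 7 was at 6.13, 6.35 and 6.28 FPKM in PS-COOH libraries and at 0.857, 0.809 and 0.322 FPKM in control libraries. The one ranked 9 was at 5.49, 5.34 and 5.71 FPKM in PS-COOH libraries and at 0.933, 0.786 and 0.747 FPKM in control libraries. The one ranked 12 was at 4.75, 4.46 and 4.63 FPKM in PS-COOH libraries and at 0.674, 0.264 and 0.779 FPKM in control libraries. Their highest PS-COOH library exceeded the lowest by 1.04, 1.07 and 1.06 times, while their control values varied more in proportion.

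A pair of genes with like exposed levels differed in their level in control roots. The gene ranked 10, on D11, averaged 5.14 ± 0.543 FPKM in PS-COOH and 0.931 ± 0.0247 FPKM in control libraries (SD, n = 3 each), the highest control mean of all 88 genes. The gene ranked 11, on D13, averaged 4.86 ± 0.0432 FPKM in PS-COOH and 0.256 ± 0.107 FPKM in control libraries. Their ratios of means were 5.52 and 19.0. The D13 gene also had the closest PS-COOH libraries of all 88, at 4.91, 4.85 and 4.83 FPKM.

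**Figure D3:**
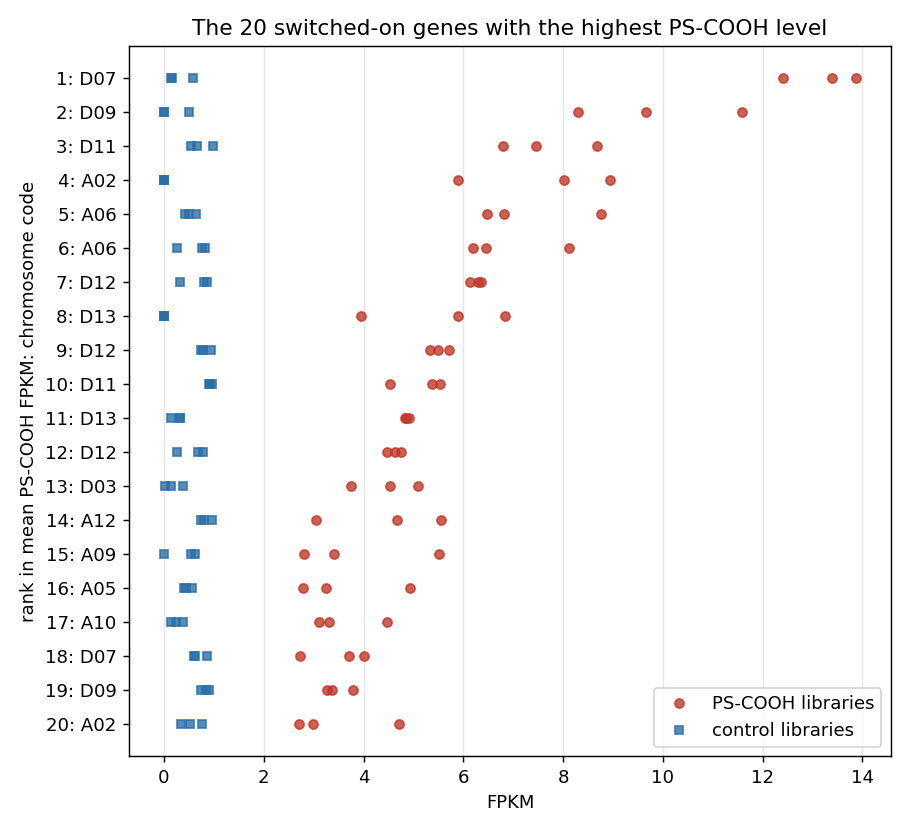
FPKM of the 20 genes with the highest mean PS-COOH level, ordered by that level and labelled with rank and chromosome code; circles are the 3 PS-COOH libraries and squares the 3 control libraries. The gene on D07 at rank 1 averaged 13.2 FPKM in PS-COOH libraries and the one at rank 20 averaged 3.46 FPKM, while every control value lies under 1 FPKM.

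The other genes among the 20 averaged 3.46 to 4.46 FPKM in PS-COOH roots. The gene ranked 13, on D03, was at 4.54, 5.08 and 3.75 FPKM in PS-COOH libraries and at 0.0282, 0.376 and 0.148 FPKM in control libraries, a ratio of means of 24.2. The gene ranked 17, on A10, was at 3.31, 3.11 and 4.47 FPKM in PS-COOH libraries and at 0.247, 0.133 and 0.375 FPKM in control libraries, a ratio of 14.4. Both were well below the control limit. Others in this range were uneven, since the PS-COOH libraries of the genes ranked 14, 15, 16 and 20, all on A codes, differed by 1.74 to 1.96 times. The largest ratio between PS-COOH libraries among all 88 genes, 1.96, was that of the gene on A09 at rank 15, which was at 3.40, 5.51 and 2.81 FPKM in PS-COOH libraries and at 0.612, 0 and 0.550 FPKM in control libraries. Of the 20, 12 carried a D code and 8 an A code, and they held 38.3% of the summed PS-COOH level of the 88 genes.

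The remaining 68 genes averaged 2.10 to 3.46 FPKM in PS-COOH roots. Where a ratio of means could be formed, it ran from 2.77 to 38.3 in them, with a median of 4.21. The ratio of 38.3 belonged to a gene on D12 that was at 2.09, 2.93 and 3.14 FPKM in PS-COOH libraries and at 0.213, 0 and 0 FPKM in control libraries. Another with a ratio above 20, on D08, was at 2.59, 2.04 and 2.70 FPKM in PS-COOH libraries and at 0.151, 0.117 and 0.0889 FPKM in control libraries. These were genes of low exposed level whose control values were lower still.

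Levels within the PS-COOH group mostly lay within 1.5 times, though less often than in other genes. The limit of 2 FPKM in each PS-COOH library had left out near-silent genes that were low in 1 of them. The highest PS-COOH library exceeded the lowest by 1.255 times in the median gene, by less than 1.5 times in 78 genes (88.6%) and by less than 2 times in all 88. Among the 23623 other annotated genes at 2 FPKM or more in each PS-COOH library and no more abundant than the highest of the 88, the median was 1.18 and 95.5% differed by less than 1.5 times, with no matching on level. The highest value fell in the first PS-COOH library for 26 genes, in the second for 36 and in the third for 26, and the lowest for 28, 33 and 27. No PS-COOH library was thus high or low for most of the genes, after the limit had left out those short in 1 library.

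The limits cut through a continuous range of values. Just inside the PS-COOH limit, a gene on A01 was at 2.005, 2.52 and 2.22 FPKM in PS-COOH libraries and at 0.501, 0.405 and 0.579 FPKM in control libraries. Just outside it, a gene on A07 was at 2.42, 1.98 and 1.99 FPKM in PS-COOH libraries and at 0.559, 0.489 and 0.870 FPKM in control libraries. Nearest the control limit inside, a gene on D11 was at 2.22, 2.36 and 2.14 FPKM in PS-COOH libraries and at 0.797, 0.591 and 0.995 FPKM in control libraries. Outside it, the nearest gene at least 2 times higher in the PS-COOH mean, on D13, was at 3.94, 3.98 and 3.14 FPKM in PS-COOH libraries and at 1.00045, 0.482 and 0.664 FPKM in control libraries. In all 4 of these genes the library that decided lay close to its limit.

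Few of the near-silent genes reached 2 FPKM. Of the 31711 annotated genes under 1 FPKM in each control library, 29561 (93.2%) were under 1 FPKM in each PS-COOH library as well, and 10984 (34.6%) were listed at 0 in all 6 libraries. At least 1 FPKM in each PS-COOH library was reached by 659 genes (2.08%), at least 2 FPKM by the 88, at least 5 FPKM by 8 and at least 10 FPKM by 1. In the opposite direction, 35 annotated genes met the mirrored limits, in which every PS-COOH library was under 1 FPKM and no control library was under 2 FPKM, with the same end of D05 left out. The 2 counts describe these libraries and were not compared by a test. No share stands beside the 35, and the summed FPKM was higher in the PS-COOH libraries, which bears on counts at fixed limits.

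Each PS-COOH library and the control library of the same number were also set aside in turn, so that the limits could be applied to the other 4 libraries and read in the pair not used. The number is used here only to form the pairs. Without the first pair 184 genes met the limits, and in the unused pair 108 of them reached 2 FPKM in the PS-COOH library and 150 were under 1 FPKM in the control library. Without the second pair 140 genes met them, of which 127 reached the PS-COOH limit and 97 stayed under the control limit in the unused pair. Without the third pair it was 126 genes, of which 107 and 104 did. Those that met both limits in the unused pair are the 88 by definition. The level of the chosen genes in the unused PS-COOH library had a median of 2.24, 2.87 and 2.66 FPKM for the 3 pairs, and in the unused control library 0.646, 0.843 and 0.645 FPKM. The unused PS-COOH library was above the unused control library in 171 of the 184, in all of the 140 and in 123 of the 126 genes. Each of these sets holds the 88 genes, in which that order was fixed by the limits, so the counts give no independent support. Among all tested genes the PS-COOH library of the same pair was above its control library in 48.7%, 46.4% and 49.6%. Those genes are at any control level, so these shares are not a match for genes chosen as near silent. The unused libraries share their group with the libraries that chose the genes, and no test was made of these shares.

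The 88 genes were spread over the genome. An A code was carried by 38 (43.2%) and a D code by 50 (56.8%), while among all genes near silent in control roots 46.8% carried an A code and 52.1% a D code. No scaffold-coded identifier met the limits. They lay on 25 of the 26 chromosome codes, with none on A08 and the most, 8, on A05. In proportion to its near-silent genes A08 would have had 3.11 and A05 4.94. D10, D12 and D13 had 6 each, where proportion gives 3.86, 3.57 and 3.36. These counts are small and were not tested.

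**Figure D4:**
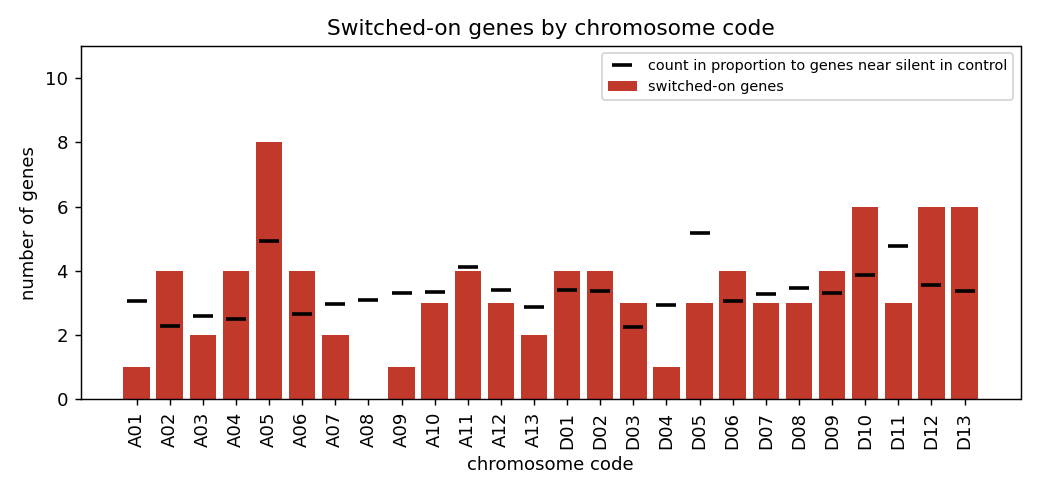
Number of the 88 genes on each chromosome code (bars) and the number in proportion to the genes of that code that were near silent in control roots (dashes). Counts run from 0 on A08 to 8 on A05, and proportion gives 2.26 to 5.19.

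The numbers in the identifiers were compared next. Most annotated identifiers have a number ending in 00, and 69 of the 88 genes (78.4%) did. That was more than the 63.3% of all genes near silent in control roots, near the 77.9% of all annotated identifiers and less than the 91.3% of genes at 2 FPKM or more in each PS-COOH library. Number order within a chromosome code is taken to follow position. In that order 18 of the 88 genes (20.5%) lay in the first or last 10% of their chromosome code, as did 19.3% of the near-silent genes and 19.7% of all A- and D-coded identifiers.

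The spacing of the genes in number order was also read. Of 63 pairs of consecutive members on a chromosome code, 1 pair was adjacent in number order and 1 more was within 10 identifiers. No count for genes placed at random was made, so these counts show neither scatter nor clustering. The adjacent pair was on D09. One of its genes was at 3.37, 3.27 and 3.79 FPKM in PS-COOH libraries and at 0.737, 0.842 and 0.898 FPKM in control libraries, and the next was at 2.60, 2.31 and 3.29 FPKM in PS-COOH libraries and at 0.937, 0.264 and 0.390 FPKM in control libraries. Both stood highest in the third PS-COOH library. Whether they are near-identical copies that share reads could not be looked up, and neither could overlap of adjacent genes on opposite strands.

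The neighbours of the 88 genes were not chosen for a change, but any neighbour that met the limits was itself a member and was left out. There were 174 identifiers directly before or after a member in number order that were not members, and 96 of them were tested. Among these 96, 24 (25%) rose and 21 (21.9%) fell in PS-COOH roots (limma, adjusted p under 0.05), where 15.7% of all tested genes rose and 15.1% fell. The median PS-COOH minus control difference of the neighbours was 0.005 on the log2(FPKM + 1) scale, and that of all tested genes -0.02. The shares were not compared by a test. At least 2-fold rises on that scale were found in 6 neighbours (6.25%), against 842 (1.86%) of all tested genes, and falls of at least 2-fold in 0 neighbours, against 259 (0.572%) of all tested genes. With 96 neighbours, that share corresponds to less than 1 gene. Of the 174 neighbours, 76 (43.7%) were under 1 FPKM in each control library, as were 42.2% of all annotated identifiers.

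**Figure D5:**
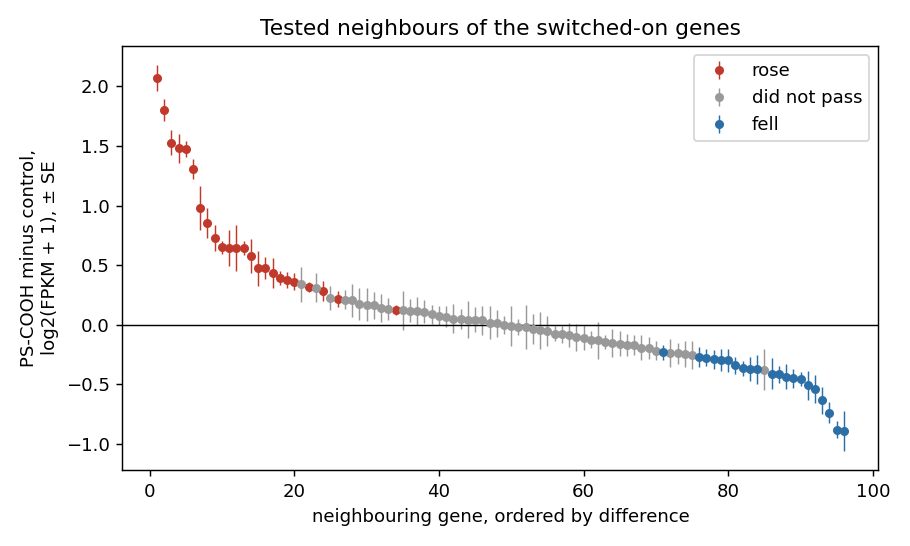
PS-COOH minus control difference (log2(FPKM + 1), with its standard error from limma) of the 96 tested genes directly beside one of the 88, ordered by size. The 24 that rose and 21 that fell at adjusted p under 0.05 are coloured, and the largest difference, 2.07, is that of a gene on D13.

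The largest rise beside a member was on D13, next to the gene listed at 0 in every control library. The gene before it was at 7.60, 7.66 and 8.08 FPKM in PS-COOH libraries and at 0.975, 1.04 and 1.26 FPKM in control libraries, a difference of 2.07 ± 0.11 on the log2(FPKM + 1) scale (SE; limma, adjusted p = 4.7e-08). The gene after it was at 6.19, 6.27 and 6.91 FPKM in PS-COOH libraries and at 1.35, 2.10 and 1.59 FPKM in control libraries, a difference of 1.48 ± 0.12 (SE; limma, adjusted p = 2.1e-06). In neither did the groups overlap. These 3 consecutive D13 genes had like levels in PS-COOH roots, on average 7.78, 5.56 and 6.46 FPKM, and 1.09, 0 and 1.68 FPKM in control roots. Within 5 identifiers on either side, 3 others were listed at 0 in all 6 libraries.

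Rises of at least 2-fold also stood beside members on D01, D07, A06 and elsewhere on D13. The D01 neighbour was at 16.5, 17.4 and 15.9 FPKM in PS-COOH libraries and at 4.37, 4.30 and 3.504 FPKM in control libraries (difference 1.80 ± 0.09, SE; limma, adjusted p = 3.8e-08). The second D13 locus had a neighbour at 37.0, 36.9 and 41.2 FPKM in PS-COOH libraries and at 12.6, 14.0 and 12.8 FPKM in control libraries (difference 1.48 ± 0.07, SE; limma, adjusted p = 1.9e-08). That neighbour was far more abundant than the member beside it, which averaged 2.36 FPKM in PS-COOH and 0.773 FPKM in control libraries.

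Other members stood beside genes that fell. Beside the 24 rises there were 21 falls, the largest on D02 and A05. Their differences were -0.89 ± 0.17 (SE; limma, adjusted p = 0.0015) and -0.88 ± 0.07 (SE; limma, adjusted p = 1.4e-06). Directly before Gohir.D07G038133.v2.1 lay a gene at 6.34, 5.25 and 6.07 FPKM in PS-COOH libraries and at 10.0, 10.9 and 10.5 FPKM in control libraries, a difference of -0.74 ± 0.09 (SE; limma, adjusted p = 4.8e-05). The identifier directly after it was listed at 0 in all 6 libraries. The D12 gene listed at 0 in control roots was followed by one at 3.54, 2.74 and 3.502 FPKM in PS-COOH libraries and at 5.23, 5.40 and 6.16 FPKM in control libraries (difference -0.63 ± 0.11, SE; limma, adjusted p = 0.0010). The genes beside Gohir.A02G048901.v2.1 did not pass the test or were not tested. The one before it was at 1.28, 1.38 and 1.31 FPKM in PS-COOH libraries and at 1.60, 1.60 and 1.55 FPKM in control libraries, and the one after it was under 0.14 FPKM in every library. The 3 genes that were listed at 0 in control roots thus stood beside genes that rose, fell or did not pass.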

How the data were processed

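RNA from cotton roots was measured in 3 PS-COOH and 3 control libraries, grouped by title. The authors deposited 1 table of FPKM values with 81166 identifiers and 6 columns, all used. Per the submitters' processing notes, HISAT2 and StringTie were among the tools. The build, annotation, filters, strand setting and treatment of shared reads were not given in the sources used here. Because FPKM is relative to each library's mapped fragments, a change in a few very abundant genes shifts the values of the others. The members and their comparisons were chosen with earlier results of these data known. Of 75376 annotated identifiers, 0 matched the 99454 entries of a RefSeq table.

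Values were transformed to log2(FPKM + 1), and identifiers reaching 1 FPKM in 3 or more libraries were fitted with limma 3.58.1 (R 4.3.3), with a trended prior, no covariate and Benjamini-Hochberg adjustment. The fit was tested on simulated data. Identifiers were printed by rule: the member with the highest lowest PS-COOH value and the most abundant one listed at 0 in all controls. Other members were taken by rank (20 highest), by nearness to a limit or by adjacency; the members with a ratio above 20, those of like level and the neighbours named were chosen after their values were seen. Where libraries are not separate cultures, p-values measure technical spread. No 2 libraries shared more than 1 identical value above 0. Relative depth came from the most frequent ratio among genes under 0.1 FPKM. Alternatives were the pseudocount, the filter, scaling, a robust prior, a replicate block, the limits and leaving out libraries. Figures used matplotlib 3.10.9.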

Additional observations from a re-analysis of the deposited data

How the results depend on the processing

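The number of genes meeting the limits depended on the limits and on single libraries. It was 15 with control libraries under 0.5 FPKM, 659 with PS-COOH libraries at 1 FPKM or more and 8 at 5 FPKM or more. With both limits doubled it was 75, of which 11 were among the 88. Scaling to an equal sum left 68, all among the 88, and median-ratio scaling gave 92, which included the 88. Leaving out 1 library gave 97 to 150, with the highest count without PS-COOH replicate 1. With a filter of 5 FPKM, 8 of the 88 genes were tested and 8 called, since fewer genes entered. Among all 22913 genes tested with that filter, 4845 (21.1%) rose. The 8 passed it only through their PS-COOH libraries. That count and the 88 called in the other alternatives were fixed by the choice of members and say nothing about stability.

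Across all genes, 4845 to 7783 rose and 4891 to 7229 fell over the alternatives, and 5599 to 6620 rose and 4891 to 6199 fell when 1 library was left out. Rises outnumbered falls as reported and with median-ratio scaling (7783 rises, 6031 falls), but not with quantile normalization (6616 and 7229) or a filter of 5 FPKM (4845 and 5072). Among 96 adjacent genes, 18 to 23 rose (18.8% to 24.0%) and 15 to 19 fell (15.6% to 19.8%) when 1 library was left out. Of all tested genes, 12.4% to 14.6% rose and 10.8% to 13.7% fell in those fits. With 2 identifiers on each side, 50 (23.9%) rose and 38 (18.2%) fell of 209 tested, beside 15.7% and 15.1% of all tested genes. Same-numbered libraries deviated with correlations of -0.07, -0.06 and -0.007. No pairing showed in these values, which do not settle whether libraries were handled in pairs. With a replicate block 6687 genes (14.8%) rose and 6014 (13.3%) fell, and 23 adjacent genes (24.0%) rose and 19 (19.8%) fell. Without read counts, values near 0 FPKM are the least certain.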

Other observations

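Near-silent genes that reached 2 FPKM in only 2 of the 3 PS-COOH libraries were as many as those that reached it in all, 87 against 88. In 62 of them the first PS-COOH library was the one that fell short, and 31 of these were under 1 FPKM there. Their median was 0.950, 4.92 and 2.74 FPKM in PS-COOH libraries 1, 2 and 3, and 0.360, 0.323 and 0.234 FPKM in the control libraries. In 46 of the 62 the second PS-COOH library was above the third. The 5 with the highest values were all of this kind. The most abundant, on A04, was at 1.67, 181 and 63.2 FPKM in PS-COOH libraries and at 0.293, 0.338 and 0.122 FPKM in control libraries. The next, on D08, was at 0.450, 58.3 and 20.8 FPKM in PS-COOH libraries and at 0.117, 0.105 and 0 FPKM in control libraries. The third, on A07, was at 1.02, 45.9 and 15.5 FPKM in PS-COOH libraries and at 0.306, 0.289 and 0.0590 FPKM in control libraries. The remaining pair carried a scaffold code, as did 10 of the 62, and stood highest in the second PS-COOH library too, at 44.3 and 41.4 FPKM. A shared order of the PS-COOH libraries over these genes was noticed in the values and was not tested. That the first library is lowest follows from how the 62 were chosen. The median ratio of the second to the third PS-COOH library was 1.01 in the 88 genes and 1.55 in the 62. The sets were split on the values of the first PS-COOH library, so the contrast is not independent of that choice.

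Among the newGene identifiers, which the annotation used for the 88 does not hold, 5 of 2691 near silent in control roots (0.186%) met the same limits. The most abundant was at 10.8, 9.08 and 9.09 FPKM in PS-COOH libraries and at 0.465, 0.853 and 0.831 FPKM in control libraries, a level that only 2 of the 88 genes exceeded on average.

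One gene on A12 and one on D12 among the 88 carry the same number within their chromosome codes. They averaged 4.42 and 5.51 FPKM in PS-COOH roots and 0.834 and 0.822 FPKM in control roots. Numbers run separately on each chromosome code, and which genes of the 2 subgenomes are counterparts is not given in the sources used here.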
